A study of Homo sapiens with 8 samples.

Results

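Human mitochondrial DNA (mtDNA) carries 37 genes, and all of them were followed here in AB8 cells, a podocyte-derived human cell line. Members were taken by position, as every gene that the GENCODE annotation places on the mitochondrial chromosome, and they are 37 of the 58395 genes in the deposited count table. They comprise 13 messenger RNAs (mRNAs), 2 ribosomal RNAs (rRNAs) and 22 transfer RNAs (tRNAs). By template, 28 of them are transcribed from the heavy strand (12 mRNAs, 2 rRNAs and 14 tRNAs) and 9 from the light strand (MT-ND6 and 8 tRNAs).

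Total RNA came from 4 libraries of cells given doxycycline for 48 h (Dox) and from 4 libraries of cells without doxycycline (woDox). Cells of both groups carried pIND21_hCrb2+GFP_S267A, from which doxycycline switches on human CRB2 joined to GFP in its S267A form, at passages 3 to 8 after modification; whether they are 1 clone is not stated. CRB2 spans the plasma membrane and belongs to the Crumbs complex, which sets cell polarity, and the comparison asks which transcripts differ once the construct is switched on. No library from doxycycline-treated cells lacking the construct was analysed here. Effects of the drug, of CRB2, of the S267A change and of GFP therefore cannot be told apart. Doxycycline is a tetracycline antibiotic and is known to inhibit protein synthesis on mitochondrial ribosomes.

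Mitochondrial DNA is a small circular genome that the cell transcribes with its own RNA polymerase, POLRMT, helped by TFAM and TFB2M. Each strand is read as a long precursor, and the tRNAs that sit between most genes are cut out of it, which frees the mRNAs and rRNAs. The mRNAs encode subunits of respiratory complexes I, III and IV and of the ATP synthase, complex V, and the rRNAs and tRNAs serve the mitochondrial ribosome that translates them. In podocytes, the filtration cells of the kidney glomerulus, inherited faults of mtDNA, such as those in the tRNA gene MT-TL1, are a known cause of kidney disease.

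The genes lie close together, and 3 sets of sequences show where they share bases, where they abut, and how the transcripts of the strands differ. All are given 5′ to 3′ in the sense of the transcript, from the GENCODE 29 transcripts on GRCh38. The first set holds the 2 mRNA pairs that share bases, with the shared bases in capitals. MT-ATP8 (MT:8366-8572, plus strand) is printed whole and shares 46 bases with MT-ATP6. For MT-ND4L the last 60 bases (MT:10707-10766, plus strand) are given, of which 7 are also the start of MT-ND4.
MT-ATP8: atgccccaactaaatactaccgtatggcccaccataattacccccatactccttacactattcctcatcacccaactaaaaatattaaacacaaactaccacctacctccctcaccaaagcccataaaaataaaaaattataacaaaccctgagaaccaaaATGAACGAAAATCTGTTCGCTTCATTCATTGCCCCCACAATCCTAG
MT-ND4L, end: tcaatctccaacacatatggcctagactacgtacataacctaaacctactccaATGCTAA

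The second set holds tRNAs that are shorter than a 75-base read. MT-TT (tRNA threonine, MT:15888-15953, plus strand) and MT-TP (tRNA proline, MT:15956-16023, minus strand) are neighbours on opposite strands at the end of the gene map. MT-TR (tRNA arginine, MT:10405-10469, plus strand) lies between MT-ND3 and MT-ND4L. MT-TS2 (a tRNA for serine, MT:12207-12265, plus strand) lies between 2 further tRNAs. No base separates MT-TR or MT-TS2 from the genes on either side.
MT-TT: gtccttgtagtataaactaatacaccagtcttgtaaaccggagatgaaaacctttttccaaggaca
MT-TP: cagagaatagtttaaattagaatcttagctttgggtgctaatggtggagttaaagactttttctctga
MT-TR: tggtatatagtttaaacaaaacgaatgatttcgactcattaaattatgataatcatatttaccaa
MT-TS2: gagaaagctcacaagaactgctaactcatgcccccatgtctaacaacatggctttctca

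The third set shows how unlike the transcripts of the 2 strands are, with every G in capitals. In the first 60 bases MT-ND6, the light-strand mRNA (MT:14614-14673, minus strand), has 21 G, against 2 G in MT-ND5 (MT:12337-12396, plus strand). Over its whole length MT-ND6 is 35.6% G and 7.05% C, against 6.28 to 16.2% G and 29.5 to 36.0% C in the 12 heavy-strand mRNAs.
MT-ND6, start: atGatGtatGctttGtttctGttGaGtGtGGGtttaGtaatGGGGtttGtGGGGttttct
MT-ND5, start: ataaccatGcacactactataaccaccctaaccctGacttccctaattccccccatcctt

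The libraries held 19008593 to 23081616 counted reads in Dox and 16829454 to 21731488 in woDox, so that a gene with 0 reads may have had up to 3 reads, or 0.13 to 0.178 CPM (read counts scaled to library size). CRB2 checked the labels: it averaged 3761 ± 1361 CPM in Dox and 20.6 ± 8.46 CPM in woDox (SD, n = 4 each), with 1731 CPM in Dox library 1 and 4246 to 4592 CPM in the other Dox libraries. Of 10 podocyte markers, 6 averaged at least 1 CPM in a group, among them ACTN4, CD2AP and SYNPO, while NPHS1, the slit diaphragm protein nephrin, had 3 reads in all. The podocyte list summed to 1142 to 1273 CPM in Dox and 1059 to 1351 CPM in woDox, and 2 of its 6 tested genes, PLCE1 and PODXL, passed with the replicate block described below. No endothelial or tubular marker averaged 1 CPM in either group. Of 5 leukocyte markers 2 did, and the list summed to 2.19 to 2.93 CPM in Dox and 3.40 to 3.92 CPM in woDox; its part in the results was not tested. The libraries numbered 1 stood apart from the other numbers in both groups, and the mtDNA genes were part of that, as the values below show. The same-numbered libraries of the 2 groups deviated together, so each comparison was also fitted with that number as a blocking term.

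Reads on mtDNA genes made up about the same share of both groups. They took 3.04, 3.44, 2.88 and 3.56% of all counted reads in Dox libraries 1 to 4, against 3.20, 3.09, 3.18 and 3.91% in woDox libraries 1 to 4. The means were 3.23 ± 0.323% in Dox and 3.34 ± 0.378% in woDox (SD, n = 4 each), a difference of -0.112 percentage points that is smaller than either SD. The groups overlapped, and Dox was higher in 1 of 4 same-numbered pairs. Without both libraries numbered 1 the difference was -0.0984 points. A share in bulk RNA cannot tell fewer mtDNA transcripts in each cell from fewer cells that hold many of them.

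The mRNAs took 1.85, 2.34, 1.98 and 2.40% of reads in Dox, against 1.94, 2.12, 2.22 and 2.60% in woDox. The rRNAs took 1.19, 1.10, 0.898 and 1.16% in Dox, against 1.25, 0.967, 0.957 and 1.30% in woDox. In both groups library 1 had the lowest mRNA share, while its rRNA share was the highest in Dox and the second highest in woDox. The tRNAs took 0.00187 to 0.00341% in Dox and 0.00187 to 0.00352% in woDox. Whether the RNA was selected for poly(A) tails or depleted of rRNA is not given in the sources used here. Either step could change the rRNA and tRNA shares, and the levels of members relative to each other.

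**Figure D1:**
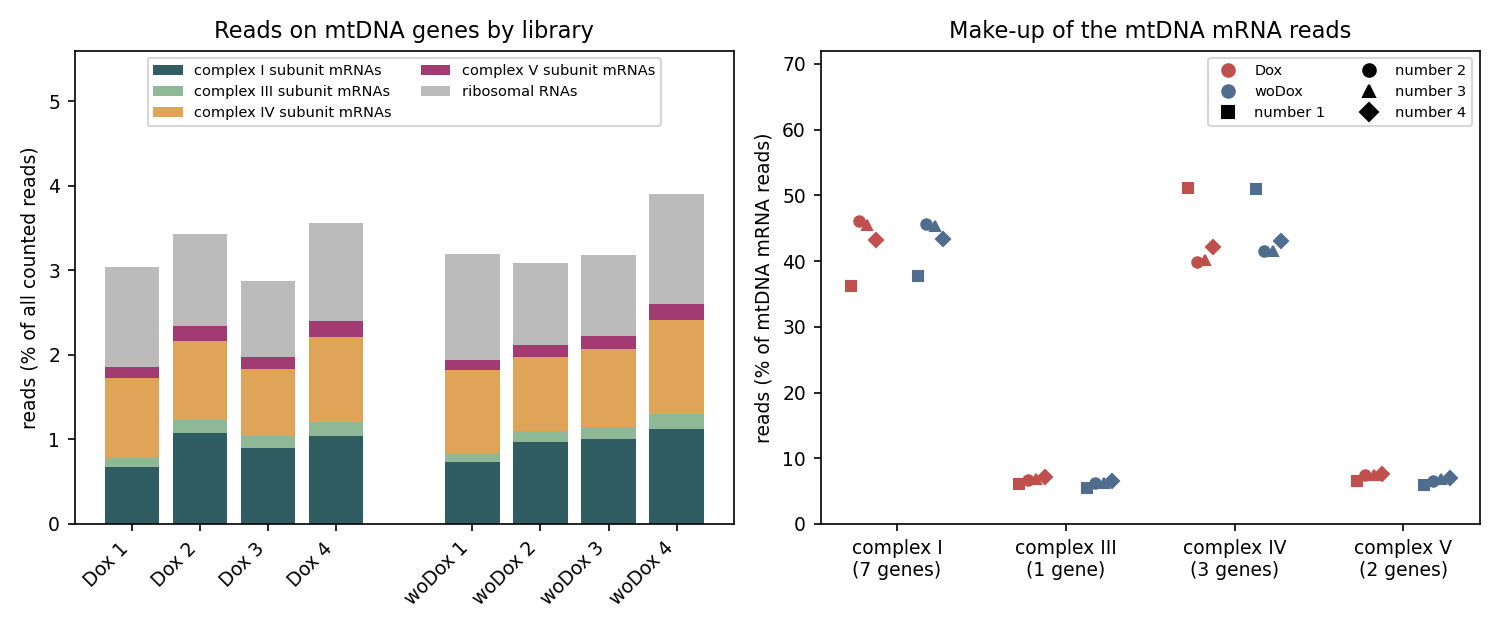
Left, reads on mtDNA genes as a percentage of all counted reads in each library, stacked by complex and rRNA; tRNAs are too few to draw. Right, the make-up of the mtDNA mRNA reads by respiratory complex, 1 point per library, with the shape giving the library number. Libraries numbered 1 (squares) had less complex I and more complex IV mRNA than the others in both groups.

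The levels of the members were compared with each other as CPM per kb of gene, averaged over all 8 libraries. MT-RNR2, the 16S rRNA of the large mitochondrial ribosomal subunit, led with 6446 CPM per kb and alone took 1.01% of all reads. The complex IV (cytochrome c oxidase) mRNAs came next, with MT-CO1 at 3390, MT-CO2 at 2959 and MT-CO3 at 2862 CPM per kb. They were followed by the complex I mRNAs MT-ND1 at 2537 and MT-ND4 at 2522, and by MT-ATP6, the ATP synthase a subunit, at 2049 CPM per kb. MT-ND4L stood at 1354, MT-CYB, the only mtDNA-encoded subunit of complex III, at 1234 and MT-ND2 at 1233 CPM per kb. Below them lay MT-RNR1, the 12S rRNA of the small ribosomal subunit, at 1015, MT-ND5 at 837, MT-ND3 at 797 and MT-ATP8 at 590 CPM per kb.

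MT-ND6, the light-strand mRNA, was the lowest of all mRNAs at 79.1 CPM per kb. Several neighbours in this order lay closer to each other than their spread over libraries: MT-CO2 and MT-CO3, MT-ND1 and MT-ND4, MT-CYB and MT-ND2, and MT-ND5 and MT-ND3. The order depends on the scale. A read of 75 bases can touch MT-ATP8 alone from only 88 start positions, here called assignable, although whether reads that touch a second gene were dropped in the counting is not given in the sources used here. Per such start the reads of MT-ATP8 summed over all libraries were 225, against 404 for MT-ATP6, 523 for MT-CO1, 136 for MT-ND5 and 12.8 for MT-ND6.

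**Figure D2:**
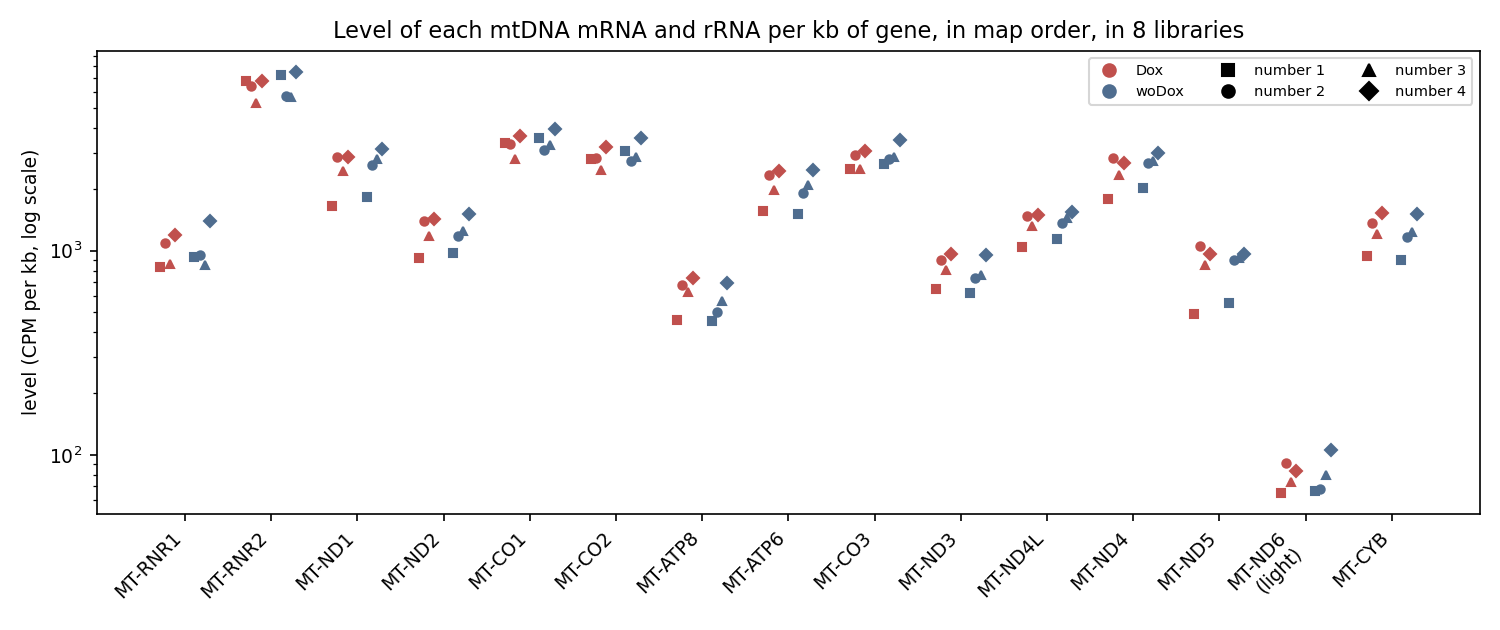
Level of the 13 mRNAs and 2 rRNAs in CPM per kb of gene (log scale), in the order of the map, with 1 point per library, Dox left of woDox. MT-RNR2 is highest and MT-ND6 lowest, and the squares of the libraries numbered 1 sit low for most mRNAs but not for MT-CO1, MT-CO2 or MT-RNR2.

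Nearly all counted mtDNA reads lay on members transcribed from the heavy strand. Light-strand members held 0.131, 0.153, 0.149 and 0.138% of mtDNA reads in Dox, against 0.124, 0.125, 0.146 and 0.158% in woDox, and the groups overlapped. For the mRNAs, the mean level per kb of the 12 heavy-strand members was 23.3, 22.0, 23.4 and 25.2 times that of MT-ND6 in Dox, against 24.2, 26.7, 23.9 and 21.3 times in woDox. The means were 23.5 ± 1.29 in Dox and 24.0 ± 2.21 in woDox (SD, n = 4 each). On the light strand this ratio rests on MT-ND6 alone. The part of RNA selection in it, which is not known, was not tested. The log2 of MT-ND6 over the heavy-strand mean differed by 0.03 between Dox and woDox, less than the spread of either group, and by 0.02 without the libraries numbered 1.

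MT-ND6, a complex I subunit, had 34.3, 47.9, 38.5 and 43.7 CPM in Dox, against 34.9, 35.8, 41.9 and 55.2 CPM in woDox. The lowest library was number 1 in both groups, and the ranges overlapped, with woDox library 4 above every Dox library. MT-ND5, the complex I mRNA that runs up to MT-ND6 on the other strand, had 885, 1912, 1549 and 1743 CPM in Dox, against 1010, 1633, 1664 and 1741 CPM in woDox. Its library 1 was far below the others in both groups. Per kb, MT-ND5 was 7.49, 11.6, 11.7 and 11.6 times MT-ND6 in Dox, against 8.38, 13.2, 11.5 and 9.14 times in woDox.

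The 2 rRNAs come from the same precursor but were far from equal in counted reads. Per kb, MT-RNR2 was 8.21, 5.86, 6.14 and 5.72 times MT-RNR1 in Dox, against 7.82, 6.01, 6.67 and 5.36 times in woDox, which averages 6.48 ± 1.17 in Dox and 6.47 ± 1.05 in woDox (SD, n = 4 each). Library 1 gave the highest ratio in each group. MT-RNR1 stood at 0.548, 0.546, 0.502 and 0.570 of the mean heavy-strand mRNA level in Dox, against 0.579, 0.523, 0.446 and 0.629 in woDox. In counted reads per kb the 12S rRNA was thus below the average mRNA. MT-RNR2 was 3.08 to 4.49 times that average in Dox and 2.98 to 4.53 times in woDox. The part of poly(A) selection or rRNA depletion in these ratios was not tested, so they need not be the ratios in the cells.

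MT-ATP8 and MT-ATP6, both parts of the ATP synthase membrane sector, are read from 1 shared mRNA, and so are MT-ND4L and MT-ND4 of complex I. Per assignable start, MT-ATP8 had 0.565, 0.560, 0.614 and 0.576 of the MT-ATP6 level in Dox, against 0.577, 0.505, 0.524 and 0.537 in woDox. Dox was higher in 3 of 4 pairs and the groups overlapped. MT-ND4L had 0.752, 0.668, 0.733 and 0.720 of the MT-ND4 level in Dox, against 0.728, 0.656, 0.677 and 0.663 in woDox. Dox was higher in 4 of 4 pairs, with overlapping groups and mean ratios of 0.718 ± 0.0361 in Dox and 0.681 ± 0.0323 in woDox (SD, n = 4 each). No test was made of these ratios.

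**Figure D3:**
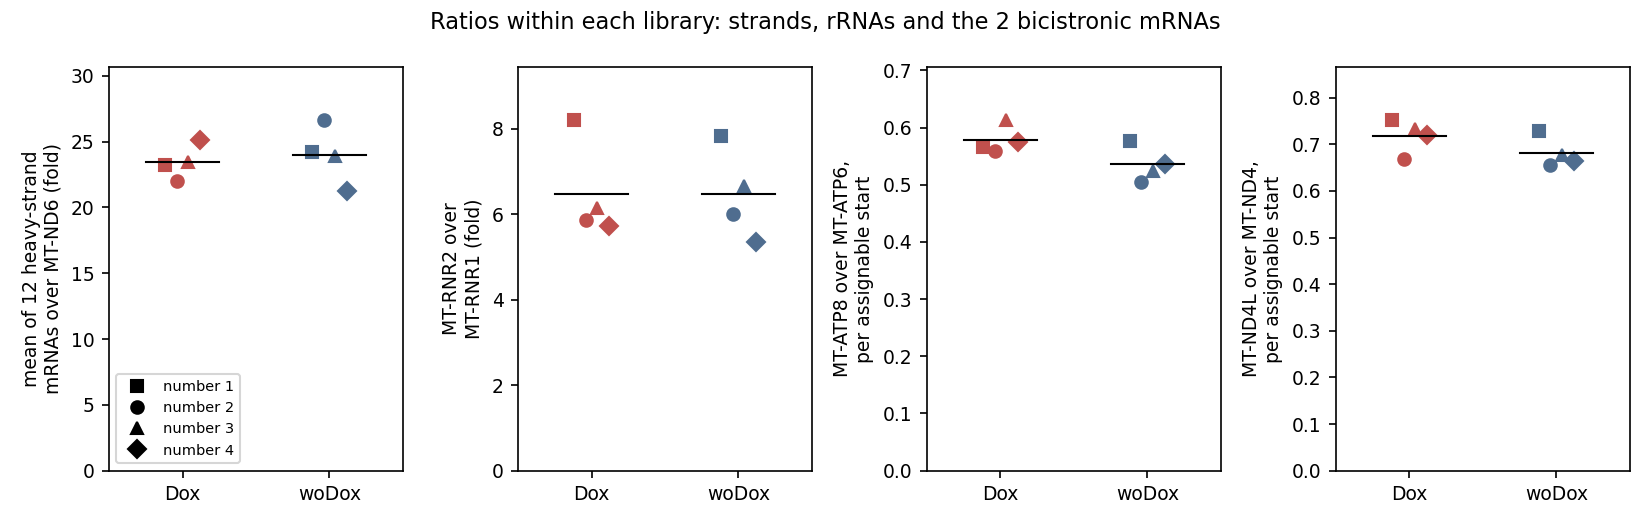
Ratios within each library for Dox and woDox, 1 point per library with the shape giving its number and a line at the group mean. From left, the mean of the 12 heavy-strand mRNAs over MT-ND6, MT-RNR2 over MT-RNR1 (both per kb), and the upstream over the downstream gene of both shared mRNAs per assignable read start. In all 4 panels the groups overlap.

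Of the 37 members, 22 had enough reads to be tested: all mRNAs and rRNAs, and 7 tRNAs. None of the 22 changed between Dox and woDox in edgeR's quasi-likelihood test, whose adjusted p ran from 0.794 to 0.997. That test called 0.0384% of all genes (6 of 15637, CRB2 among them). No member had an unadjusted p under 0.05, against 9.38% of all genes. DESeq2 called 0 of the 18 members to which it gave an adjusted p, against 188 of 13816 genes over all, a share too small to expect a call. No member had groups that did not overlap, against 7.04% of all genes. The log2 changes, Dox over woDox, lay between -0.11 and 0.18 for the mRNAs and rRNAs, with a median of -0.03 over the 22 members and 0.000597 over all tested genes. The 95% intervals of the mRNAs and rRNAs reached from -0.56 to 0.58, both bounds being those of MT-ND5. Other genes had narrower intervals, such as -0.30 to 0.15 for MT-CO1. Changes within a gene's own interval lie inside the error of this fit.

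When libraries were blocked by number, 13.8% of all genes passed (2159 of 15637, with 7.51% higher and 6.29% lower in Dox). Still 0 of the 22 members passed, with adjusted p from 0.092 to 0.99. Under the block 5 members had an unadjusted p under 0.05, which is 5 of 22 against 28.5% of all genes. The intervals of the mRNAs and rRNAs narrowed to between -0.36 and 0.33, both bounds being those of MT-ND6. That gene's interval narrowed little, from -0.39 to 0.34 without the block. The interval of MT-CO1 became -0.17 to 0.023. Leaving out the libraries numbered 2 was the one setting that brought calls: MT-CO1, MT-CO2, MT-CO3, MT-ND1 and MT-ND4 then fell in Dox, by 0.14, 0.16, 0.16, 0.16 and 0.19 on the log2 scale (edgeR with block, adjusted p = 0.0488, 0.0212, 0.0245, 0.0171 and 0.00663). For each of these genes number 2 was the only pair higher in Dox, so this setting left out the pair that went against the fall. In that setting 5 of 23 tested members and 12.6% of all 15624 tested genes passed.

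**Figure D4:**
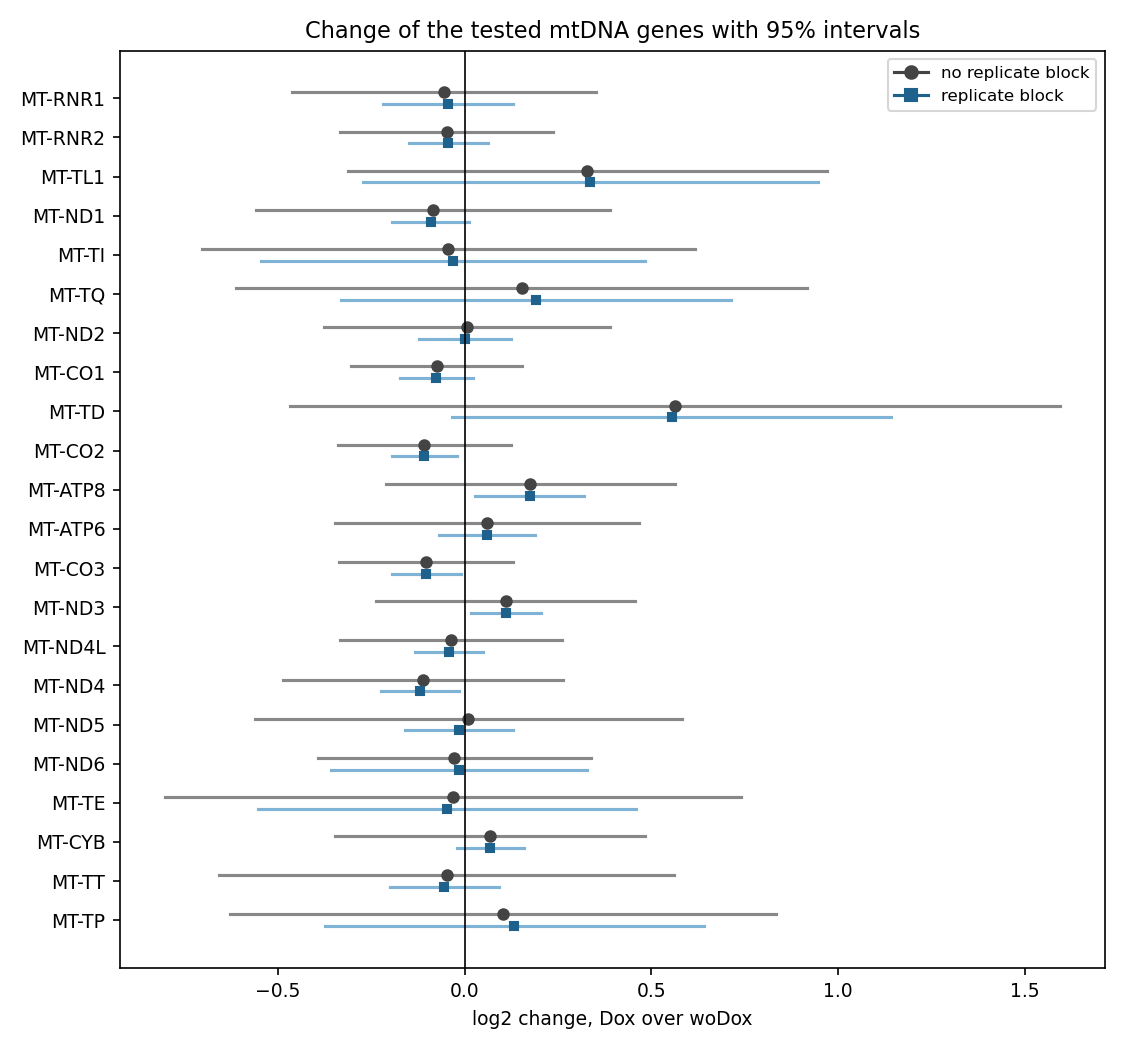
Log2 change of the 22 tested members, Dox over woDox, with 95% intervals, in map order; circles are the fit without a replicate block and squares the fit with it. Every interval without the block spans 0, and with it MT-CO2, MT-CO3 and MT-ND4 lie just below 0 and MT-ATP8 and MT-ND3 just above, none past the adjusted threshold.

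Complex IV mRNAs had values on the lower side in Dox. MT-CO1, the catalytic subunit of cytochrome c oxidase, had 5212, 5166, 4360 and 5626 CPM in Dox, against 5481, 4808, 5078 and 6083 CPM in woDox. Dox was lower in 3 of 4 pairs, and library 2 was the exception. The log2 change was -0.08 (SE 0.10, adjusted p = 0.901 in edgeR). MT-CO2 had 1926, 1944, 1708 and 2215 CPM in Dox, against 2097, 1888, 1976 and 2437 CPM in woDox. Its pattern over libraries was that of MT-CO1, and the log2 change was -0.11 (SE 0.10, adjusted p = 0.844 in edgeR, 0.092 with the block). MT-CO3 averaged 2163 ± 227 CPM in Dox and 2324 ± 277 CPM in woDox (SD, n = 4 each).

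Complex I, which takes electrons from NADH, has 7 mtDNA-encoded subunits, and their values pointed in both directions. MT-ND4 had 2463, 3941, 3236 and 3723 CPM in Dox, against 2787, 3700, 3811 and 4144 CPM in woDox. Only number 2 was higher in Dox, and the log2 change was -0.11 (SE 0.16, adjusted p = 0.912 in edgeR). MT-ND3 had 224, 311, 278 and 333 CPM in Dox, against 215, 255, 263 and 329 CPM in woDox. It was higher in Dox in all 4 pairs, and the log2 change was 0.11 (SE 0.15, adjusted p = 0.904 in edgeR, 0.106 with the block). MT-ND1 averaged 2355 ± 546 CPM in Dox and 2497 ± 533 CPM in woDox, MT-ND2 averaged 1287 ± 249 CPM in Dox and 1282 ± 234 CPM in woDox, and MT-ND4L averaged 397 ± 63.2 CPM in Dox and 407 ± 51.3 CPM in woDox (SD, n = 4 each).

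MT-CYB, whose protein cytochrome b carries electrons within complex III, had 1073, 1569, 1378 and 1746 CPM in Dox, against 1028, 1337, 1412 and 1724 CPM in woDox. Dox was higher in 3 of 4 pairs and the ranges were nearly the same. MT-ATP8 had 94.8, 141, 130 and 152 CPM in Dox, against 93.5, 103, 118 and 144 CPM in woDox. It was higher in Dox in all 4 pairs, by between almost nothing in number 1 and the most in number 2, and the log2 change was 0.18 (SE 0.17, adjusted p = 0.852 in edgeR, 0.112 with the block). MT-ATP6 averaged 1424 ± 278 CPM in Dox and 1367 ± 279 CPM in woDox (SD, n = 4 each). Being higher in all 4 pairs is common among all genes: 3 of the 22 members were (MT-ATP8, MT-ND3 and MT-TD), against 18.6% of all tested genes, and 0 members were lower in all 4, against 17.0%.

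Counted by complex, the make-up of the mRNA reads moved by little. Complex III took 6.03, 6.65, 6.90 and 7.17% of mtDNA mRNA reads in Dox, against 5.42, 6.24, 6.28 and 6.60% in woDox. Complex V took 6.53, 7.38, 7.40 and 7.54% in Dox, against 5.92, 6.55, 6.90 and 7.06% in woDox. Both shares were higher in Dox in 4 of 4 pairs, with overlapping groups. Complex IV took 51.2, 39.9, 40.2 and 42.1% in Dox, against 51.0, 41.5, 41.5 and 43.0% in woDox, and was higher in Dox in number 1 alone. Complex I took 36.3, 46.0, 45.5 and 43.2% in Dox, against 37.7, 45.7, 45.4 and 43.3% in woDox. Since these shares sum to a whole, they are not independent of each other, and no test was made of them.

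For most mRNAs the libraries numbered 1 differed from the rest by more than Dox differed from woDox, and by much the same factor in both groups. Library 1 was the lowest of its group for 10 of 13 mRNAs in Dox and 11 of 13 in woDox. MT-ND5 in library 1 stood at 0.511 of the mean of libraries 2 to 4 in Dox and at 0.601 in woDox. MT-ND1 stood at 0.607 in Dox and 0.640 in woDox, MT-CYB at 0.686 in Dox and 0.690 in woDox, and MT-ND6 at 0.790 in Dox and 0.788 in woDox. Among the complex IV mRNAs and the large rRNA the drop was smaller or not there: MT-CO3 stood at 0.887 in Dox and 0.871 in woDox, MT-CO1 at 1.03 in both groups, MT-CO2 at 0.985 in Dox and 0.999 in woDox, and MT-RNR2 at 1.10 in Dox and 1.16 in woDox. Set against each other, MT-ND5 reads were 0.170 of MT-CO1 reads in Dox library 1 and 0.310 to 0.370 in the other Dox libraries, against 0.184 in woDox library 1 and 0.286 to 0.340 in the other woDox libraries. What a number marks is not stated, and the part of RNA quality in this was not tested.

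The tRNAs were counted sparsely, with 355, 676, 612 and 660 reads in Dox libraries and 368, 550, 667 and 593 reads in woDox libraries. MT-TT, the threonine tRNA printed above, held most of these, with 223, 465, 453 and 464 reads in Dox, against 257, 408, 512 and 410 reads in woDox. In CPM it averaged 19.4 ± 5.65 in Dox and 20.0 ± 5.43 in woDox (SD, n = 4 each), and its log2 change was -0.05 (SE 0.27, adjusted p = 0.983 in edgeR). The number 1 libraries were again the lowest of each group, at 0.511 of the mean of the others in Dox and 0.568 in woDox. MT-TT follows MT-CYB with no base between them.

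The other 6 tRNAs that could be tested had means between 0.56 and 2.04 CPM in either group, and their log2 changes spanned from -0.04 to 0.56. The highest belonged to MT-TD, the aspartate tRNA, which had 11, 20, 11 and 25 reads in Dox, against 8, 14, 5 and 16 reads in woDox. Its 95% interval, from -0.47 to 1.59, held values on both sides of 0 (adjusted p = 0.794 in edgeR). MT-TL1, the leucine tRNA gene known for the mutation of MELAS syndrome, had 61 reads in all Dox libraries and 46 in all woDox libraries. At such counts only large changes could have been seen.

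Which tRNAs had any reads was set beside the gene map. A tRNA is shorter than the 75-base read, so a full-length read that touches it also touches a neighbour unless a gap or a gene on the other strand lies beside it. Counting the start positions from which a read touches 1 gene alone on its strand gave 0 positions for 6 tRNAs, and 5 of these (MT-TG, MT-TR, MT-TH, MT-TS2 and MT-TL2) had 0 reads in all 8 libraries, while MT-TV had 4. All 12 tRNAs with 60 or more such positions had reads, among them MT-TP with 194, MT-TQ with 312 and MT-TS1 with 30. Between these stood MT-TK with 22 positions and 0 reads, MT-TN with 31 positions and 0 reads, MT-TC with 22 positions and 6 reads, and MT-TL1 with 3 positions and 107 reads. If reads that touch a second gene were dropped, a count of 0 says nothing about the level of MT-TR or MT-TS2, whose genes are printed above.

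**Figure D5:**
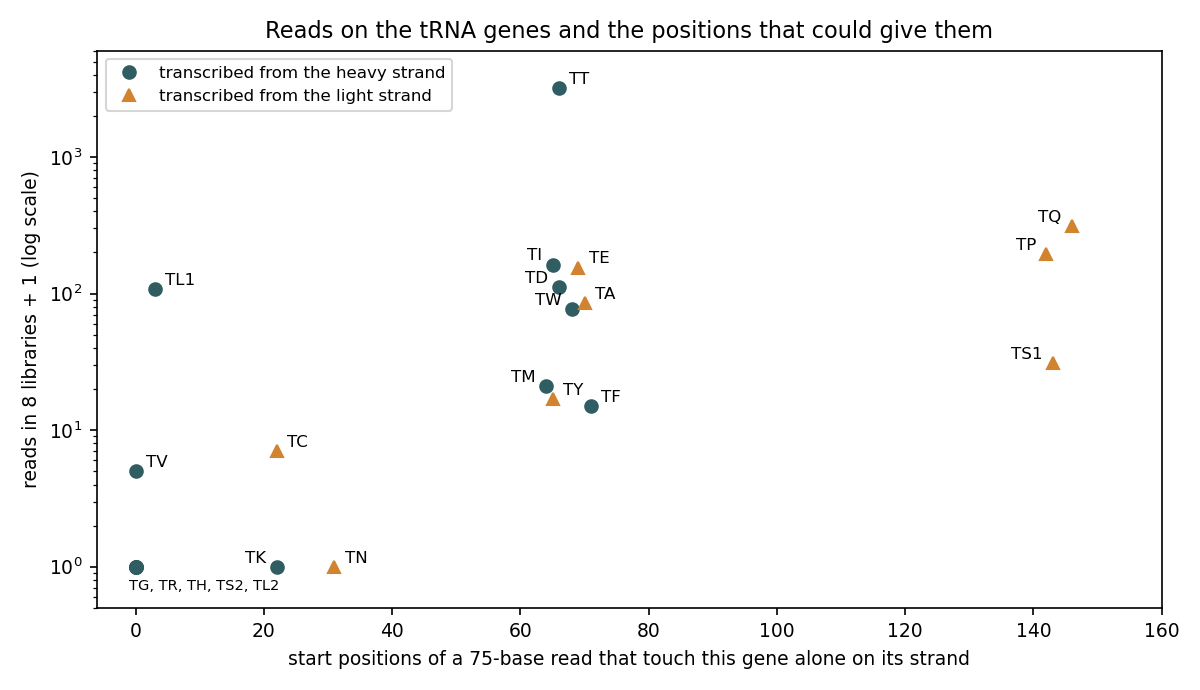
Reads summed over 8 libraries plus 1 (log scale) for each of the 22 tRNA genes, against the number of start positions from which a 75-base read touches that gene alone on its strand. Circles are transcribed from the heavy strand and triangles from the light strand; MT-TT stands far above the others with a like number of positions.

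The counts also bear on the strand. If strand were ignored, 13 tRNAs would have no such position, and 7 of them have some once strand is used; all 7 had reads. Among nuclear genes that lie wholly inside a gene of 1000 or more reads on the opposite strand, 95 of 343 had 10 or more reads, against 3 of 450 that lie inside such a gene on their own strand, where 444 had 0 reads. The strand setting itself is not given in the sources used here, and reads that trimming made shorter than 75 bases were not modelled.

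Copies of mtDNA genes in the nuclear genome are near-identical in places and could share reads with them. Of 407 such genes by name, 74 had reads and 5 averaged 1 CPM or more. Together the copies took 0.0472% of library reads. MTATP6P1 on chromosome 1 was the highest, with 270 ± 53.5 CPM in Dox and 253 ± 48.2 CPM in woDox (SD, n = 4 each), next to MTND2P28 on chromosome 1 at 176 CPM over all libraries. These reads cannot be told apart from reads of MT-ATP6 and MT-ND2 that were placed on the copy, and the copies' levels are uncertain for the same reason. Over all libraries MTATP6P1 averaged 262 CPM beside 1396 CPM for MT-ATP6, and MT-ND2 averaged 1285 CPM. The levels, ranks and ratios of both members given above leave out any of their reads placed on the copies.

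The nuclear genes that make, process and use mtDNA transcripts were followed in 6 lists of 99 genes, of which 98 were tested. None passed edgeR's test without the block, where 0.0384% of all genes did. DESeq2 called 0 of the 98, against 188 of 13816 genes over all. With the block 5 rose and 5 fell, which is 10.2% of them against 13.8% of all genes. Their median log2 change was -0.00542, against 0.000597 over all genes. These block calls were few enough to name, but between 1 and 7 of the 98 passed when 1 pair was left out, and ESRRA alone passed without the libraries numbered 4.

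Among the 10 transcription genes, TFB1M, which methylates the 12S rRNA, fell by 0.26 on the log2 scale with the block (18.0 ± 3.19 CPM in Dox, 21.8 ± 6.12 CPM in woDox, adjusted p = 0.0235 in edgeR). It had 30.9 CPM in woDox library 1 and 18.1 to 19.5 CPM in the other woDox libraries, and the call was lost without the libraries numbered 1 (adjusted p = 0.117 in edgeR with block). Without woDox library 1 the unblocked log2 change was -0.06, against -0.28 with it. Among the 14 replication and packaging genes, RNASEH1, which removes RNA from RNA-DNA hybrids, rose by 0.19 (47.9 ± 5.52 CPM in Dox, 42.0 ± 5.68 CPM in woDox, adjusted p = 0.0197 in edgeR with block). Of the 20 genes of RNA processing and stability, 3 passed. PRORP, the nuclease of mitochondrial RNase P that cuts the 5′ ends of tRNAs, fell by 0.28 (11.3 ± 1.63 CPM in Dox, 13.7 ± 1.29 CPM in woDox). SLIRP, a partner of LRPPRC in keeping mRNAs stable, fell by 0.15, and FASTKD1, an RNA-binding protein of the FASTK family, rose by 0.23 (edgeR with block, adjusted p = 0.0282 for PRORP, 0.0273 for SLIRP and 0.0138 for FASTKD1). SDs are over n = 4 libraries a group.

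Of the 22 genes of rRNA and tRNA modification, NSUN3, which methylates the methionine tRNA, rose by 0.26 and YRDC, which acts in making a modified adenosine next to the anticodon, fell by 0.18 (edgeR with block, adjusted p = 0.0476 for NSUN3 and 0.0259 for YRDC). Of the 23 aminoacylation genes, LARS2, which charges the leucine tRNAs, rose by 0.20, with 40.9 ± 0.916 CPM in Dox and 35.6 ± 2.82 CPM in woDox. EARS2, which charges the glutamate tRNA, rose by 0.14 and lay at the threshold (edgeR with block, adjusted p = 0.0266 for LARS2 and 0.05 for EARS2). Of 9 tested regulators of mitochondrial biogenesis, ESRRA, a nuclear receptor that acts with PGC-1 coactivators, fell by 0.24, with 42.7 ± 4.88 CPM in Dox and 50.4 ± 2.82 CPM in woDox (adjusted p = 0.00499 in edgeR with block; SD, n = 4 each). No list had more than 3 called genes.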

How the data were processed

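Per the submitters' processing notes, HISAT2 2.1.0, HTSeq 0.11.1 and Trimmomatic 0.38 were among the tools and GRCh38 (hg38) was the build; roles are not listed. Libraries came from a strand-marking kit as single reads of 75 bases, per the labels' protocols. The authors deposited raw read counts per Ensembl gene; their normalized table was not used here. Not given in the sources used here are the annotation release, the overlap and strand settings and any poly(A) selection. Of 58395 gene IDs, 58275 matched GENCODE release 29, which gave the names, chromosomes and positions.

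After filterByExpr (minimum count 10) 15637 genes remained for edgeR 4.0.16 (R 4.3.3), with TMM scaling and its quasi-likelihood test without a replicate block (robust, two-sided, Benjamini-Hochberg over all tested genes, threshold 0.05). CPM values use TMM-scaled totals, and CPM per kb divides them by gene length. Sums over members were given as values, with no p. Assignable starts are positions from which a 75-base read touches 1 annotated gene on its strand. The scripts were tested on simulated counts.

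All 8 libraries carry a number from 1 to 4 in both groups. Over 11500 genes, deviations of same-numbered libraries from their group means correlated at 0.911, 0.704, 0.707 and 0.648, and those of unlike numbers at -0.775 to 0.667, so that for numbers 2 to 4 the margin was small; the number was also fitted as a block. No label explains the number or says that replicates were separate cultures; p-values therefore measure only spread among these samples, which may be technical. Alternatives were DESeq2 1.42.0, RLE, upper-quartile and nuclear-only scaling, library totals, no filter, no robust estimation and leaving out libraries. All members are named, and from each nuclear list the genes called in either fit (at most 4). Members and lists were chosen with earlier results of these data known. Values of some marker genes are not reported here.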

Additional observations from a re-analysis of the deposited data

Results flagged for a closer look

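In 11 of 126 groups of 4 libraries examined, 1 library lay far from the other 3: its gap to the nearest of them was most of the group's range (printed here as a share of that range). Chance alone marks about 1 group in 20, the groups share libraries and reads, and 10 of the 11 involve a library numbered 1.

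Among the members, MT-ND5 in woDox was lowest in library 1, with 1010 CPM against 1633 to 1741 CPM in the other woDox libraries (0.853). The share of all reads on mtDNA genes in woDox was highest in library 4, with 3.91% against 3.09 to 3.20% (0.863). Of mtDNA mRNA reads, complex V took 6.53% in Dox library 1 and 7.38 to 7.54% in the other Dox libraries (0.846). Complex IV took 51.0% in woDox library 1 and 41.5 to 43.0% in the other woDox libraries (0.836).

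Of the ratios per kb in Dox, MT-ND5 over MT-ND6 was 7.49 in library 1 and 11.6 to 11.7 in the others (0.977). MT-RNR2 over MT-RNR1 was 8.21 in library 1 and 5.72 to 6.14 in the others (0.831). MT-RNR2 over the mean heavy-strand mRNA was 4.49 in library 1 and 3.08 to 3.26 in the others (0.875). Heavy-strand tRNA reads numbered 273 in Dox library 1 and 511 to 554 in the other Dox libraries (0.847).

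Among nuclear genes, RNASEH1 had 39.7 CPM in Dox library 1 and 49.9 to 51.6 CPM in the others (0.859), and TFB1M had 30.9 CPM in woDox library 1 and 18.1 to 19.5 CPM in the others (0.887). CRB2 had 1731 CPM in Dox library 1 and 4246 to 4592 CPM in the others (0.879).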

How the results depend on the processing

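The count of 0 members past the threshold held under every scaling, without a filter, in DESeq2, with the replicate block and without both libraries numbered 1; leaving out replicates gave 0 to 5. The differences in read share and strand ratio moved by less than the woDox SD under every alternative. That SD was the larger, at 0.378 points and 0.134 on the log2 scale, against 0.323 and 0.0786 in Dox. Leaving out libraries could move the strand ratio by more than the Dox SD. The sign of both differences was not stable when a library was left out. The count over all genes was 6, and it became 37 with no filter, 188 in DESeq2, 543 without both libraries numbered 1 and 2159 with the replicate block; leaving out replicates gave 3 to 1968, the upper counts all in the block fit. Of the nuclear genes, 10 passed with the replicate block, and leaving out replicates gave 0 to 7. The cause was not tested. The block ended or made no call among the members.

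Several members' log2 changes turned sign, all of them uncalled. MT-ND2 was -0.0065 with upper-quartile factors and -0.00020 with no filter. MT-ND5 was -0.0020 with upper-quartile factors and -0.016 with the replicate block. MT-TE was 0.042 without both libraries numbered 1. Leaving out replicates moved MT-ND1 between -0.22 and 0.060, MT-ND2 between -0.091 and 0.12, MT-ND4 between -0.22 and 0.0047, MT-ND4L between -0.12 and 0.063, MT-ND5 between -0.14 and 0.19, and MT-ND6 between -0.17 and 0.13. It moved MT-CYB between -0.048 and 0.19, MT-ATP6 between -0.054 and 0.18, MT-RNR1 between -0.16 and 0.12, and MT-RNR2 between -0.11 and 0.025. Among the tRNAs it moved MT-TE between -0.23 and 0.19, MT-TI between -0.21 and 0.20, MT-TP between -0.14 and 0.33, MT-TQ between -0.049 and 0.48, and MT-TT between -0.21 and 0.14. Among the mRNAs, leaving out woDox library 1 gave a change below 0 for several. Leaving out Dox library 1 gave one above 0 for the same genes. They were MT-ND1, MT-ND2, MT-ND4, MT-ND4L, MT-ND5, MT-ND6, MT-CYB and MT-ATP6. For some of these the sign also turned without another library. Low counts limit the tRNAs: 7 had 0 reads, 8 had too few to test. Of those with 0 reads, 5 have no start from which a 75-base read touches them alone on their strand. The part of depth was not tested. The limit that a count of 0 allows covers counting error only, while the intervals of the log2 changes also hold the spread between libraries.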

Other observations

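HIST1H4C, whose mRNA lacks a poly(A) tail in cycling cells, had 7, 15, 6 and 2 reads in Dox and 12, 22, 4 and 50 reads in woDox; it was chosen after its values were seen. RN7SK, a nuclear RNA without a poly(A) tail, had 0 reads in all libraries. MT-TT had 48.4 reads per assignable start over all libraries, against 200 for MT-CYB just upstream of it, 2.49 for MT-TI and 1.37 for MT-TP on the other strand. MT-TL1 had 35.7 reads per assignable start, from 3 positions.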
